A study of Mus musculus with 2 samples.

Results

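The Kit locus was described through 76 entries of 4 deposited peak lists, of 38228 entries in all. They were chosen by summit position: every peak with its summit between 75600000 and 76300000 on chromosome 5 (mm9), the interval between Pdgfra and Kdr that holds Kit. Summit positions are themselves measured values, and the locus was picked with the calls of these libraries known, so its counts and calls are a description. The entries are 32 own peaks of the Tet2+/+ library, 25 own peaks of the Tet2-/- library, 18 regions called higher in Tet2+/+ and 1 region called higher in Tet2-/-. The gene body was taken as 75.97 to 76.05 Mb, plus strand, a rounded position and not an annotated one. Distances from the start of Kit are therefore approximate.

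Kit encodes the receptor tyrosine kinase for stem cell factor, on which mast cells depend for growth and survival and which blood progenitors also carry. Its expression in mast cells draws on elements scattered over a long stretch of upstream DNA, and rearrangements of that stretch deplete mast cells in mice while leaving the coding sequence intact. TET enzymes oxidise 5-methylcytosine to 5-hydroxymethylcytosine (5hmC). The mark is known to lie mainly in bodies of transcribed genes and at enhancers, and to be low at CpG-dense promoters. Pdgfra and Kdr, on either side, encode the receptors PDGFRα and VEGFR2.

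The cells were bone marrow-derived mast cells of C57BL/6 mice aged 6 to 12 weeks, either Tet2+/+ or Tet2-/-, grown in interleukin-3. Both genotypes were sorted after 4 weeks for surface Kit and FcεRIα, so the cells assayed had been selected for Kit protein at the surface. Peak lists cannot check the Tet2 deletion itself. 5hmC was tagged with glucose and biotin, pulled down and sequenced, in 1 library per genotype. The labels give 2 animals per genotype, and whether DNA was pooled across them is not stated. With 1 library each there is no replicate spread and no test of genotype. All intervals below are 95% intervals for counting error only. The Tet2-/- library was 1.18 times as deep, judged by the genome background of the peak statistics, so its fragments were multiplied by 0.848 in every ratio between the libraries. Such ratios are relative to the backgrounds of the libraries, and a difference in total 5hmC between the genotypes was not measured. Fragments are given as counted unless a value is called scaled.

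The deposited files hold coordinates without sequence, and no mm9 genome was used here, so no peak sequence is printed. The sequence shown is the Kit promoter, because no called peak of either library lay near the start of the gene. It is RefSeq's window from 250 bases before to 50 after the start of the gene, at chr5:75574737-75575036 of GRCm38.p6, plus strand, a different build from that of the peaks. Capitals mark CpG dinucleotides, the sites at which 5hmC forms.
Kit promoter: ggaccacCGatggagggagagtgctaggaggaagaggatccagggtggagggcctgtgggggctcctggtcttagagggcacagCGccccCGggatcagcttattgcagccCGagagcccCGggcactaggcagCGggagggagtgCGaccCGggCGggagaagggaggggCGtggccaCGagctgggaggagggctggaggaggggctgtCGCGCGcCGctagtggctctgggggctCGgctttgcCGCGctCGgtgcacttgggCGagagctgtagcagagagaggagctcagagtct
The 300 bases hold 20 CpGs and are 69% G or C. Of 32851 RefSeq promoter windows of this length, 26.5% hold at least as many CpGs, and the median is 7. A search for GATAA on both strands, the core of the motif of GATA factors, found none in this window. 25.4% of all windows hold it.

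No called 5hmC peak lay at the start of Kit in either genotype. The nearest summits within the gene were 7.08 kb inside it in Tet2+/+ (25 fragments at the summit, 16.2 to 36.9) and 6.98 kb inside it in Tet2-/- (34 fragments, 23.5 to 47.5). These are 1 shared peak, at 75976860 to 75977130 and 75976851 to 75977079. On the upstream side the nearest summit was 19.8 kb away in Tet2+/+ (21 fragments) and 10.6 kb away in Tet2-/- (13 fragments, no Tet2+/+ partner). Around the start both libraries thus had a stretch without a called summit, 26.9 kb long in Tet2+/+ and 17.6 kb in Tet2-/-. Upstream, longer ones lay between 253 and 187 kb in Tet2+/+ and between 187 and 141 kb in Tet2-/-. The stretch at the start was therefore not the longest in either library. In GRCm38.p6, Kit is the only protein-coding gene listed between Pdgfra and Kdr, beside 2 pseudogenes, 1 long noncoding RNA and 1 small nuclear RNA gene.

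Most peaks of the interval lay in and upstream of the gene. Over the 370 kb upstream, Tet2+/+ had 18 own peaks and Tet2-/- had 17, or 4.86 and 4.59 per 100 kb. The gene body, 80 kb long, held 12 in Tet2+/+ and 6 in Tet2-/-, or 15.0 per 100 kb (7.75 to 26.2) and 7.50 per 100 kb (2.75 to 16.3). These intervals overlap. The 250 kb downstream, towards Kdr, held 2 in each genotype, or 0.8 per 100 kb (0.0969 to 2.89). As deposited, the gene body was the densest segment in both genotypes and the downstream side the sparsest. In Tet2-/- the intervals of the gene body and of the upstream side (2.68 to 7.36) overlap. The order of gene body and upstream side turned among peaks with a fold of at least 5, where it was 1.25 against 3.24 per 100 kb in both genotypes. It also turned in Tet2+/+ at a −log10 q of at least 10, with 1.25 against 1.62. In bins of 50 kb, the last part of the gene, from 30 to 80 kb inside it, showed the widest gap between the libraries, with 7 Tet2+/+ and 2 Tet2-/- peaks. The adjoining bin, across the start, had 6 in each. No other bin differed by more than 2 peaks.

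Regions called higher in Tet2+/+ were spread over the same 2 segments. There were 8 upstream (2.16 per 100 kb), 9 in the gene body (11.3 per 100 kb) and 1 downstream. The single region called higher in Tet2-/- lay upstream, and none lay in the gene body or downstream. Of the 32 Tet2+/+ own peaks, 17 overlapped a region called higher in Tet2+/+ (53.1%, exact interval 34.7 to 70.9), against 13.8% of all Tet2+/+ own peaks of the genome. In the gene body this was 9 of 12 (75.0%, 42.8 to 94.5), upstream 8 of 18 (44.4%, 21.5 to 69.2) and downstream 0 of 2. The shares in the gene body and upstream cannot be separated at these counts. Strong peaks are called more readily: of all Tet2+/+ own peaks in the gene body's range of 24 to 39 summit fragments, 26.5% overlapped such a call. Of the 25 Tet2-/- own peaks, 1 overlapped a region called higher in Tet2-/- (4.00%, 0.101 to 20.4), and the background over all Tet2-/- own peaks was 2.77%. That share is near its background.

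Set beside the genome, the interval was rich in peaks of both libraries. Windows of the same 700 kb that held any own peak numbered 2597, with a median of 5 Tet2+/+ and 5 Tet2-/- own peaks. The Kit interval coincides with a window of this grid. At least as many Tet2+/+ own peaks as its 32 lay in 7 other windows, and at least as many Tet2-/- own peaks as its 25 in 25 other windows. For regions called higher in Tet2+/+ the median window held 1, and 0 other windows held 18 or more. For regions called higher in Tet2-/-, 403 other windows held at least 1. These are ranks of a locus picked with its calls known, and carry no test.

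**Figure D1:**
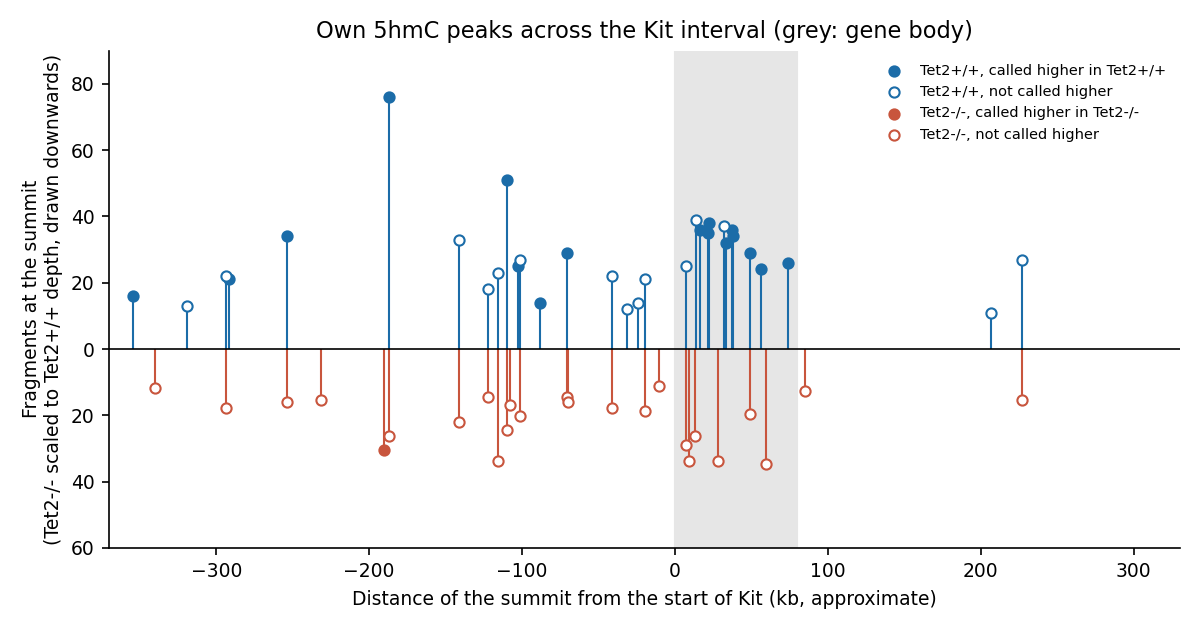
Fragments at the summit of each own peak against the distance of the summit from the start of Kit in kb, Tet2+/+ upwards and depth-scaled Tet2-/- downwards, with the gene body in grey. Filled points overlap a region called higher in that genotype: 17 of the 32 Tet2+/+ peaks and 1 of the 25 Tet2-/- peaks.

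The gene body of Kit stood on a broad plateau of 5hmC pulldown fragments in both genotypes. The peak caller's expectation for an own peak follows the number of fragments in the 10 kb around its summit, which gives a level of the neighbourhood beside that of the summit. At a genome background of 73.0 fragments per 10 kb in Tet2+/+, the 12 gene body peaks had 192 to 655 (median 514.5), or 2.63 to 8.98 times background. The 18 upstream peaks had 78 to 341 (median 143), or 1.07 to 4.67 times. At a background of 86.0 in Tet2-/-, the 6 gene body peaks had 258 to 489 (median 394.5), or 2.999 to 5.68 times, and the 17 upstream peaks had 1.00 to 3.25 times. The median of all own peaks was 1.47 times background in Tet2+/+ and 1.34 times in Tet2-/-. Only 0.369% of Tet2+/+ and 0.681% of Tet2-/- own peaks of the genome had a neighbourhood as high as the median one in the gene body of Kit. These counts include the fragments of the peak itself and of its neighbours. Own peaks were called on the pulldown library alone, so no input level stands beside them. Whether repeated sequence adds to them was not tested.

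Among called summits, the plateau was highest in the first part of the gene. In Tet2+/+ it rose from 354 fragments per 10 kb at 7.08 kb inside the gene to 655 at 13.4 kb, held 501 to 604 from 16.3 to 37.4 kb, and then fell to 424, 318, 318 and 192 at the last 4 summits, the last at 74.0 kb. In Tet2-/- it was 371 at 6.98 kb, 473 at 9.25 kb and 489 at 13.2 kb, then 418 at 27.9 kb, 262 at 49.2 kb and 258 at 59.5 kb. Among called summits, the highest neighbourhood was thus at 13.4 kb in Tet2+/+ and at 13.2 kb in Tet2-/-. Tet2-/- had no called summit between 13.2 and 27.9 kb or between 27.9 and 49.2 kb, so its own list gives no level there. The direct calls below give expectations from Tet2-/- in these stretches, which are not the same measure. The peak of Tet2-/- beyond the gene, at 84.96 kb from the start, was back at 125 fragments.

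At depth-scaled level the Tet2+/+ neighbourhood was the higher one at 5 of the 6 Tet2-/- gene body peaks, when each was set beside its nearest Tet2+/+ summit. The ratios ran from 0.883 to 1.58, with a median of 1.44. For 3 of the 6, which had no partner, the nearest Tet2+/+ summit was 2.18, 3.12 or 4.15 kb away. Their ratios, 0.883, 1.45 and 1.49, set different places of the plateau side by side. At the shared peak near 13 kb, whose summits were 0.197 kb apart, 655 Tet2+/+ fragments stood against 414.7 scaled Tet2-/- fragments, a ratio of 1.58. At the shared peak near 49 kb it was 318 against 222.2, a ratio of 1.43, and at the shared peak near 7 kb it was 354 against 314.6, a ratio of 1.13. The ratio under 1 came from the Tet2-/- peak at 9.25 kb, which had no partner. The Tet2+/+ peak near 7 kb served for both that shared peak and the Tet2-/- peak at 9.25 kb, so the 6 comparisons are not all separate. Over the 8462 pairs of the genome with summits within 100 bp, the median of this ratio was 1.12, and 74.8% of pairs were above 1. With so few peaks, 5 of 6 is not set apart from that share. The 2 gene body pairs with summits that close had the ratios of 1.13 and 1.43. In a bulk sample, fewer cells with the mark and less of it in each cell cannot be told apart.

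**Figure D2:**
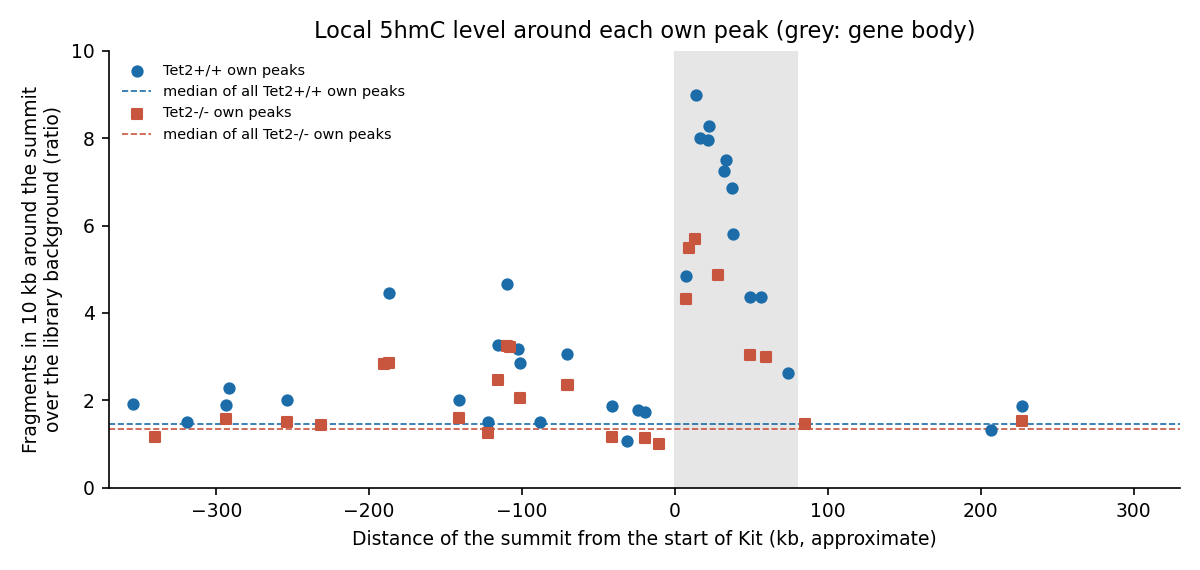
Fragments in the 10 kb around each own summit, as a multiple of the library's genome background, against distance from the start of Kit in kb, with dashed lines at the median of all own peaks of each library. The gene body (grey) reaches 8.98 times background in Tet2+/+ and 5.68 times in Tet2-/-, against at most 4.67 and 3.25 times upstream.

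On this plateau, gene body peaks had many fragments and a low deposited fold, which is measured over the neighbourhood. Their folds ran from 2.76 to 5.58 in Tet2+/+ (median 3.25), against 4.15 to 10.2 upstream (median 5.46). Their summits nonetheless carried 24 to 39 fragments (median 34.5), against 12 to 76 upstream (median 22). All 12 were above the genome's median summit of 17 fragments, and 11 of 12 were under its median fold of 5.48; the exception lay near the end of the gene, at 76043857 to 76044337, with a fold of 5.58. In Tet2-/- the 6 gene body peaks had folds of 2.97 to 6.82 and 23 to 41 fragments.

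The 9 regions called higher in Tet2+/+ in the gene body lay from 16.3 to 74.0 kb inside it, a median of 6.38 kb apart. The first, at 75985984 to 75986400, had 36 Tet2+/+ fragments (25.2 to 49.8) against an expectation of 11.2 from Tet2-/-, a deposited fold of 3.03. Next came a pair 0.665 kb apart, at 75991466 to 75991877 with 35 fragments over 11.9 expected and at 75992325 to 75992625 with 38 over 10.3. At 76002683 to 76003284, 32 fragments stood over 13.6 expected, the lowest fold of the interval at 2.27 and a −log10 q of 1.73.

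A second close pair lay at 76007212 to 76007619, with 36 fragments over 9.33 expected, and at 76008059 to 76008351, with 34 over 7.63. The latter had the highest −log10 q of the gene body, 7.43, and a fold of 4.05. The remaining 3 were at 76019042 to 76019259 (29 fragments over 8.31), 76026179 to 76026451 (24 over 5.09) and 76043944 to 76044217 (26 over 6.78). Of the 9, only the region at 76019042 also overlapped a Tet2-/- own peak; the other 8 overlapped a Tet2+/+ own peak alone (88.9%, 51.8 to 99.7). That share was 55.6% over all 2724 regions called higher in Tet2+/+, within the interval of the 9. Expectations from a control library are not its coverage at the summit, and the deposited folds exceed the ratio of coverage where both can be had.

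3 of the 12 Tet2+/+ gene body peaks had no such call. These were the shared peaks near 7 and 13 kb, and the peak at 76001953 to 76002193 (37 fragments, 26.1 to 51.0, no Tet2-/- partner). The peak near 13 kb, at 75983366 to 75983616, had the most fragments of all Tet2+/+ gene body peaks, 39 (27.7 to 53.3), over a Tet2-/- peak of 31 (26.3 after scaling), a ratio of 1.48 (0.902 to 2.46). So the first 2 Tet2+/+ peaks inside the gene were shared and uncalled, and 9 of the 10 after them were called. This split was drawn with the calls in view. Of all Tet2+/+ own peaks 13.8% were called, and 26.5% of those with 24 to 39 fragments. The called peak at 49.1 kb was shared too, and its ratio of 1.49 (0.831 to 2.69) was near that of the uncalled peak near 13 kb.

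Tet2-/- cells had 3 gene body peaks of their own, and these had the most summit fragments of its peaks there. They lay at 75979032 to 75979416 (40 fragments, 28.6 to 54.5), 75997803 to 75998157 (40 fragments, fold 4.38) and 76029227 to 76029677 (41 fragments, 29.4 to 55.6, fold 6.82). The last had a −log10 q of 19.3, second in the interval among Tet2-/- peaks. None overlapped a Tet2+/+ own peak and none was called higher in Tet2-/-. A partner was thus found for 3 of the 6 Tet2-/- gene body peaks (50%, 11.8 to 88.2), against 65.8% of all Tet2-/- own peaks, and a call for 0 of 6, against 2.77%. At 6 peaks neither share can be told from that of the genome. Scaled for depth they had 33.9, 33.9 and 34.8 fragments, within the 24 to 39 that Tet2+/+ peaks of the gene body carried. The Tet2+/+ coverage at these positions is not given by the lists, so no ratio can be stated. The other 3 Tet2-/- gene body peaks were the shared ones.

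**Figure D3:**
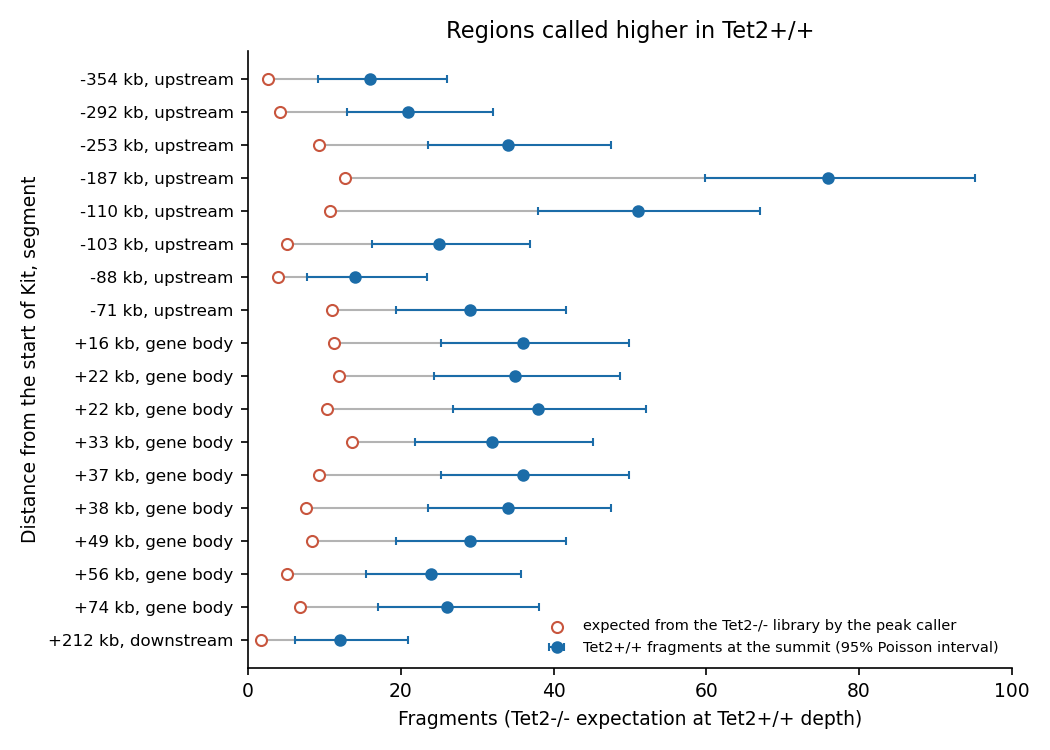
The 18 regions called higher in Tet2+/+, ordered by distance from the start of Kit, with Tet2+/+ fragments at the summit (filled, 95% Poisson interval) and the peak caller's expectation from Tet2-/- fragments (open). Gene body regions sit between 24 and 38 fragments, while upstream regions run from 14 to 76.

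Upstream, the 8 regions called higher in Tet2+/+ began 354 kb before the gene and ended 70.8 kb before it. The last 50 kb before the gene had 4 Tet2+/+ and 3 Tet2-/- own peaks and no direct call. The strongest region, 187 kb upstream at 75782571 to 75782924, ranked first in the genome by −log10 q in its list, at 25.5. It had 76 Tet2+/+ fragments (59.9 to 95.1), and the Tet2-/- peak at 75782553 to 75782934 had 31 (21.1 to 44.0), or 26.3 scaled, with summits 2 bp apart. The Tet2+/+ peak there was also wider, 667 bp against 382 bp. The next, 110 kb upstream at 75860258 to 75860584, had 51 fragments (38.0 to 67.1) over a Tet2-/- peak of 29 (19.4 to 41.6), or 24.6 scaled, and a −log10 q of 13.0. Only these 2 regions of the interval reached a −log10 q of 10 in the direct comparison.

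Both of the remaining upstream calls with a Tet2-/- peak were weaker. At 75716360 to 75716630, 253 kb upstream, 34 Tet2+/+ fragments (23.5 to 47.5) stood over 19 in Tet2-/- (11.4 to 29.7), or 16.1 scaled. The Tet2+/+ peak there was 765 bp wide, the widest of the interval, against 259 bp in Tet2-/-. At 75899226 to 75899441, 70.8 kb upstream, it was 29 over 17, or 14.4 scaled, with a fold of 2.50 and a −log10 q of 2.10.

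In 4 upstream calls Tet2-/- had no peak of its own. These were at 75615408 to 75615758 (16 fragments, 2.54 expected), 75678040 to 75678239 (21 fragments, 4.24 expected), 75867122 to 75867444 (25 fragments, 5.09 expected) and 75881803 to 75882012 (14 fragments, 3.90 expected). The last had a −log10 q of 1.42, the lowest of the 18. Their summits had at most 25 fragments, fewer than those of the 4 calls that overlapped a Tet2-/- peak, which had 29 to 76. The downstream call, at 76181788 to 76182026, rested on 12 fragments (6.20 to 21.0) over 1.70 expected and overlapped no own peak of either library, the only such call of the interval.

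The 1 region called higher in Tet2-/- lay beside the strongest region called higher in Tet2+/+. At 75779428 to 75779653, 190 kb upstream, it had 36 Tet2-/- fragments (25.2 to 49.8), or 30.5 at Tet2+/+ depth, where the peak caller expected 9.20 from Tet2+/+. Its deposited fold was 3.09 and its −log10 q 3.14, which placed it 328th of 469 regions in its list. Tet2+/+ had no own peak there. Its summit was 3.19 kb from that of the region called higher in Tet2+/+, with 2917 bp between the regions.

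Peaks common to both genotypes were compared by their summit fragments. Of the 32 Tet2+/+ own peaks, 15 overlapped a Tet2-/- peak (46.9%, 29.1 to 65.3), against 61.2% over the genome, and 15 of 25 Tet2-/- peaks overlapped a Tet2+/+ peak (60%, 38.7 to 78.9), against 65.8%. Both intervals include the share of the genome. Upstream, 11 of 18 Tet2+/+ peaks had a partner, and in the gene body 3 of 12 (25.0%, 5.49 to 57.2). The gene body's interval lies under the 61.2% of all Tet2+/+ own peaks, though the gene body was singled out with its peaks in view.

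In 12 of the 15 common peaks the summits lay within 100 bp. Their Tet2+/+ summits had 377 fragments in sum and their Tet2-/- summits 292, or 247.6 at Tet2+/+ depth, a ratio of 1.52 (1.30 to 1.78). Without the strongest pair the ratio was 1.36 (1.15 to 1.61). Over the 8462 pairs of the genome it was 1.13 (1.12 to 1.14). The locus was picked with its calls known, and 5 of the 12 pairs were called higher in Tet2+/+ from the same fragments. A ratio above that of the genome is thus a description and not separate evidence. The median pair of the genome was shifted towards Tet2+/+ by 0.19 on the log2 scale. Tet2+/+ was higher in 10 of the 12 pairs, against 66.0% of all pairs. With the general shift removed it was higher in 9 of 12, against 4231 of 8462 over the genome, a share fixed by removing the median. No intervals were computed for these counts of 12 pairs, so they are not told apart from the genome.

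4 of the 12 pairs had intervals wholly above 1, all of them upstream and all called higher in Tet2+/+. Of the 12 pairs, 9 lay upstream. The share of pairs of the genome with such intervals is not given here, so the count of 4 has no background beside it. Their ratios were 2.11 (1.17 to 3.92) at 253 kb, 2.89 (1.88 to 4.54) at 187 kb, 2.07 (1.29 to 3.39) at 110 kb and 2.01 (1.07 to 3.90) at 70.8 kb. With the general shift removed, the ratio at 70.8 kb became 1.77 with an interval from 0.939, and the other 3 stayed above 1. The ratio at 187 kb was equalled or passed by 0.260% of all pairs of the genome. That pair holds the region ranked first in its direct list, called from the same fragments, so its place among pairs is a description. The deposited folds of these 4 regions were 3.39, 5.61, 4.45 and 2.50, each above the ratio of coverage. The fifth called pair, 49.1 kb inside the gene, had 29 against 23 fragments, or 19.5 scaled, a ratio of 1.49 (0.831 to 2.69).

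The 7 uncalled pairs had intervals that included 1. In 4 upstream pairs the ratio was between 1.13 and 1.25, near the general shift of the genome. At 294 kb and again at 41.4 kb, Tet2+/+ had 22 fragments against 17.8 scaled Tet2-/- fragments, a ratio of 1.24 (0.648 to 2.36). At 122 kb it was 18 against 14.4 scaled, a ratio of 1.25, and at 19.8 kb 21 against 18.7 scaled, a ratio of 1.13. Without the general shift these 4 ratios were 0.989 to 1.10. In 2 pairs Tet2-/- had more fragments also after scaling. At 116 kb upstream, at 75854318 to 75854618, Tet2+/+ had 23 fragments and Tet2-/- 40, or 33.9 scaled, a ratio of 0.678 (0.388 to 1.16), and the Tet2-/- peak had the highest −log10 q of its list in the interval, 21.3. It lay next to the region at 110 kb, where Tet2+/+ was the higher. At the shared peak 7.08 kb inside the gene it was 25 and 34 fragments, or 28.8 scaled, a ratio of 0.867 (0.496 to 1.497).

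Of the 3 common peaks with summits farther apart, that at 141 kb upstream had 33 Tet2+/+ and 26 Tet2-/- fragments, or 22.0 scaled (ratio 1.497, 0.868 to 2.61), and its Tet2+/+ peak was the fourth of the interval with a −log10 q of 19.6. The peak at 101 kb had 27 and 24, or 20.4 scaled (ratio 1.33, 0.737 to 2.40). The third was the peak near 13 kb inside the gene.

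**Figure D4:**
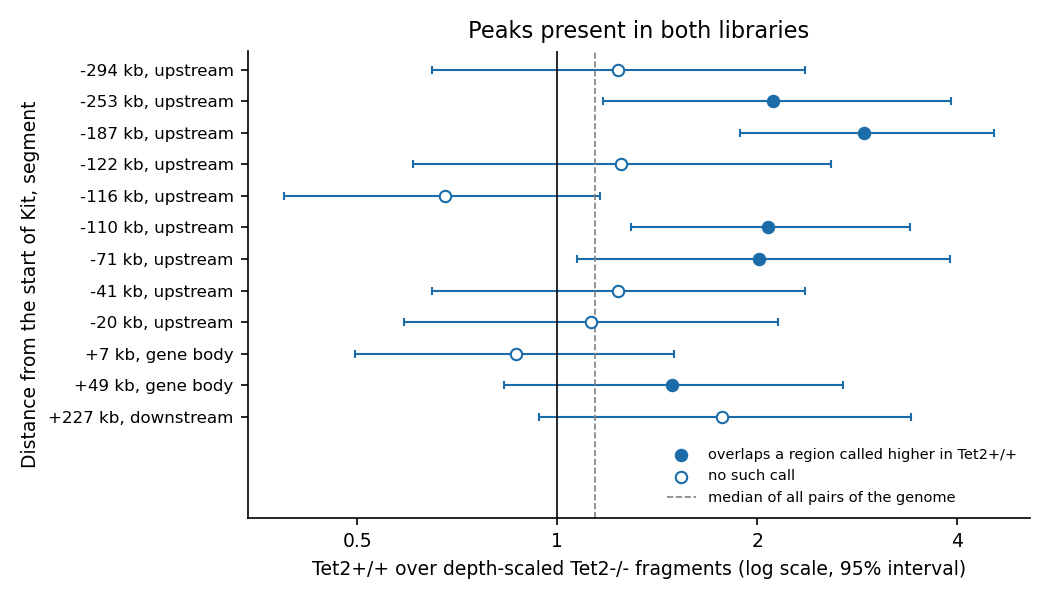
Ratio of Tet2+/+ to depth-scaled Tet2-/- summit fragments (log scale, with 95% intervals) at the 12 common peaks with summits within 100 bp, ordered by distance from the start of Kit. Of the 12 pairs, 9 lie upstream, among them the 4 with intervals above 1, between 70.8 and 253 kb before the gene. In all, 2 pairs lie under 1.

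The remaining peaks lay outside the gene body. For comparison, the median of all own peaks was 17 summit fragments in Tet2+/+ and 18 in Tet2-/-. Upstream, Tet2+/+ had 3 own peaks with neither a partner nor a call, with 12 to 14 fragments at 319, 31.7 and 23.9 kb. Tet2-/- had 5 such peaks, with 13 to 20 fragments, at 340, 231, 108, 69.8 and 10.6 kb. Downstream, Tet2+/+ alone had a peak at 76176785 to 76177191 (11 fragments), and Tet2-/- alone had 1 at 76054891 to 76055117 (15 fragments), just past the assumed end of Kit. The common downstream peak, at 76196428 to 76196872 and 76196560 to 76196829, had 27 Tet2+/+ and 18 Tet2-/- fragments, or 15.3 scaled, a ratio of 1.77 (0.939 to 3.41), and was the fifth of the Tet2+/+ peaks of the interval with a −log10 q of 14.5. The last 103 kb of the interval had no called peak in any list.

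At the edges, the first Tet2+/+ peak inside lay 15.6 kb from the lower limit (16 fragments, fold 4.47), and the last outside lay 60.2 kb below it (18 fragments, fold 7.42). For Tet2-/- these distances were 30.2 kb (14 fragments) and 324 kb (27 fragments). At the upper limit the nearest peak inside was the common downstream peak, 103 kb away, and the nearest outside was a peak of both libraries about 75.7 kb beyond it, with 14 Tet2+/+ and 33 Tet2-/- fragments. The next region called higher in Tet2+/+ lay 323 kb below the lower limit and 729 kb above the upper one.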

How the data were processed

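5hmC pulldown was sequenced in 1 Tet2+/+ and 1 Tet2-/- library, from 4 µg of DNA sonicated to 200 to 400 bp, per the labels' protocols. Bowtie2, MACS2 and the mm9 build are named per the submitters' processing notes. How they were run is not given in the sources used here. Per library, the authors deposited 2 lists of peaks, called on that library alone (own peaks) or with the other library as control (regions called higher). The deposited columns are the fold at the summit, the −log10 p and −log10 q of the peak, and a score, 10 times the −log10 p rounded down (99.99% of own peaks). All are the authors' values and rank peaks within a list only. Read totals are unknown.

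Summit fragments and the expected pileup were solved from fold and −log10 p by MACS2's formulas. A whole number of fragments met the p within 0.001 for 100% of peaks, and the same number came from own and direct lists at 17 of 17 regions called higher in Tet2+/+ that had an own peak. Expected pileups of own peaks came in steps of 0.02, 1 fragment of 200 bp in 10 kb, and were read as fragments in 10 kb. The calculation was tested on simulated data. Peaks sharing at least 1 bp counted as overlapping. Shares have exact Clopper-Pearson, fragments exact Poisson, and ratios exact conditional binomial 95% intervals. No test across samples was possible. Peaks were not masked for repeats. Software was scipy 1.17.1, pandas 2.3.3 and numpy 2.4.6 under Python 3.11.15, with matplotlib 3.10.9 for plots.

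The locus, its limits and its segments were set with earlier results of these data known. Regions named are all direct calls, the 5 own peaks of highest −log10 q per library, own peaks in or within 10 kb of the gene (the 5 highest where over 10), and those nearest its start; other peaks were named after their values were seen. Alternatives were stricter −log10 q and fold limits, other overlap and pairing rules, merged peaks, moved gene limits, the general shift removed and offset windows.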

Additional observations from a re-analysis of the deposited data

How the results depend on the processing

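Over 25 results, 115 values were recomputed under 15 alternative settings: 69 lay inside the counting interval of the reported value (for numbers of peaks, within 1.5 times), 46 lay outside, and the pooled ratio stayed above 1 in each of its settings. The density order of the gene body and the upstream side did turn, in both genotypes at a fold of at least 5 and in Tet2+/+ at a −log10 q of at least 10. At −log10 q of at least 5, regions called higher in Tet2+/+ fell from 18 to 8 (4 upstream, 4 in the gene body, 0 downstream), that higher in Tet2-/- was lost (0), and 1 own peak per library was left downstream. The share of own peaks called was then 29.2% in Tet2+/+ and 0 in Tet2-/-. Genome shares are given only for the lists as deposited, so shares under other settings have no background beside them. Whether they differ from the genome at the same limits is not shown. At −log10 q of at least 10, each library had 8 own peaks. Of these 6 were upstream in each, 1 and 2 in the gene body and 1 and 0 downstream, for Tet2+/+ and Tet2-/-. Regions higher in Tet2+/+ were 2, both upstream, with 0 elsewhere, and 0 were higher in Tet2-/-. Partner shares fell to 25.0% in both libraries, and the shares called were 25.0% and 0. At a fold of at least 5, each library had 14 own peaks, 1 of them in the gene body and 1 downstream. 1 region, upstream, was then higher in Tet2+/+, 0 in the gene body or downstream and 0 in Tet2-/-, and the shares called were 7.14% and 0. The gene body of Kit, whose folds are low on its plateau, thus loses nearly all its peaks under a fold limit. With reciprocal overlap of at least 50% the Tet2-/- share called was 0. Moving the gene limits inwards by 10 kb put 2 regions higher in Tet2+/+ downstream, and moving them outwards left 1 Tet2-/- own peak downstream. Windows offset from the grid never held 18 regions higher in Tet2+/+ (0%). The pooled ratio at common peaks was 1.34 to 1.68 in every setting run. It is not separate from the direct calls, which were made from the same fragments. Lower counts under stricter limits follow from the limits. No paired analysis was possible because there is only 1 library of each genotype. Single peaks of the interval rest on 11 to 76 fragments, which limits their precision. Leaving out the strongest pair was added after seeing the data.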
